A study of Mus musculus with 6 samples.

Results

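Glycolysis in mouse embryonic stem cells was followed here through 38 genes, from the glucose carriers of the cell membrane to lactate export and the entry of pyruvate into mitochondria. The genes were chosen by name, as the enzymes, carriers and regulatory kinases of the pathway, among 21978 entries of the deposited count table. All 38 were in the table and all passed the filter on low counts. They fall into glucose carriers (2 genes), upper glycolysis (9), the PFKFB bifunctional enzymes (4), lower glycolysis (9), lactate formation and export (5), pyruvate import and oxidation (5) and the pyruvate dehydrogenase kinases (4).

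Messenger RNA was sequenced from 6 cultures that differ in DGCR8, the RNA-binding partner of the nuclease Drosha, with which it releases precursor miRNAs from primary transcripts. KO cells were DGCR8 -/- and not transfected, and both libraries, KO 1 and KO 3, carry clone number 261. The wt cells (clones 12 and 16) and the E518K cells (clones 8 and 15) carried a pSB transposon vector coding for Flag-tagged DGCR8, either the wild-type protein or the E518K form that the series title ties to Wilms tumours. Every culture, KO included, received 300 ng/mL doxycycline for 48 h and grew without feeders on gelatin, in medium with serum, LIF and inhibitors of GSK3 and MEK. The labels give the genotypes DGCR8 wt/wt and DGCR8 E518K/E518K for these lines and do not say which line received the vectors.

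Glycolysis splits glucose into pyruvate in the cytosol and gains ATP and NADH. Pyruvate is then either reduced to lactate, which leaves the cell through monocarboxylate carriers and restores NAD+, or carried into mitochondria, where pyruvate dehydrogenase turns it into acetyl-CoA. Pluripotent stem cells are known for a high rate of glycolysis, and many genes of the pathway are textbook targets of HIF-1 and MYC.

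Libraries held 73642784 to 75121971 counts. Values below are CPM, counts scaled to a common library size with TMM factors, and a gene is said to have risen or fallen where edgeR's quasi-likelihood test gave an adjusted p under 0.05 over the 16498 genes tested. Errors of log2 fold changes are standard errors, with 2 libraries in each group, and p-values rest on the scatter of these libraries alone, which may be technical where KO is concerned. Dgcr8 itself stood at 40.0 and 37.1 CPM in KO, 820.6 and 420.2 CPM in E518K, and 195.5 and 992.4 CPM in wt, so the 2 wt clones lie further apart than the group means of wt and E518K. The cells carried pluripotency markers at a summed 5239 to 6972 CPM, against 4.12 to 7.42 CPM for 8 fibroblast markers, 1.56 to 2.37 CPM for 7 primitive endoderm markers, 59.6 to 88.2 CPM for 7 trophectoderm markers and 53.9 to 81.2 CPM for 5 neural markers. Of the pluripotency markers, 6 of 8 fell and 1 rose in KO against wt, with a median log2 fold change of -0.24, and their sum was 5239 to 5341 CPM in KO, 6246 to 6272 CPM in E518K and 5993 to 6972 CPM in wt. Of the neural markers, 3 of 5 rose in KO and 3 of 5 in E518K. Their sums were 75.2 to 80.7, 70.4 to 81.2 and 53.9 to 57.4 CPM in KO, E518K and wt. Trophectoderm markers moved both ways, with 3 of 6 tested lower and 1 higher in KO, and the same counts in E518K. In KO, 2 of 6 tested primitive endoderm markers fell, and 1 of 6 tested fibroblast markers fell and 1 rose. Over all genes tested, 29.7% fell and 27.4% rose in KO, and 12.5% and 11.3% in E518K. The part of these markers in the results below was not tested.

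The pathway from glucose uptake to lactate export was lower in KO than in wt at almost every step. The 25 genes counted here are those of glucose uptake, upper glycolysis, lower glycolysis, and lactate formation and export. The 4 PFKFB genes are left out of the 25, and 3 of these 4 fell and 1 rose in KO. Of the 25 genes, 22 fell and 0 rose in KO against wt, 15 of them by at least 2-fold. Unadjusted p-values under 0.05 gave the same 22 and 0, and DESeq2 also called 22 lower and 0 higher. Over all 16498 genes tested, 5334 were lower and 4951 higher at that unadjusted p, and 4805 and 4617 by DESeq2. The median log2 fold change of the 25 was -1.25, against -0.025 over all genes tested. Over all 38 genes, 26 fell and 3 rose in KO, where 57.2% of all genes tested changed, 29.7% downward and 27.4% upward. A fall of at least 2-fold was seen in 17 of the 38, against 10.0% of all genes, and a rise of that size in 1, against 11.6% of all genes.

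E518K lay between. Against wt, 1 of the 4 PFKFB genes fell and 0 rose in E518K. Of the 25 genes, 21 fell and 0 rose. At an unadjusted p under 0.05, 22 were lower and 0 higher, where 3261 and 3086 of all 16498 genes were. DESeq2 called 21 lower and 0 higher, where it called 2313 and 2444 of all genes. The median log2 fold change of the 25 was -0.59, against -0.016 over all genes. Of all 38 genes, 23 fell and 3 rose, against 12.5% and 11.3% of all genes tested (23.7% in either direction). A fall of at least 2-fold was seen in 10, against 4.34% of all genes, and a rise of that size in 0, against 2.3%. These counts rest on both E518K clones, and fewer genes passed when either was left out, among the 38 and over all genes. The median log2 fold change of the 38 was -0.51 with all libraries, -0.52 without E518K 8 and -0.48 without E518K 15. Against KO, E518K was higher for 23 of the 38 genes and lower for 6, where 22% and 19.8% of all genes were (41.8% in either direction). By at least 2-fold, 6 were higher, against 3.97% of all genes, and 1 was lower, against 6.44%. The 3 comparisons share libraries, so they are not independent of each other.

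The values of single libraries show the same order. In 23 of the 38 genes, and in 20 of the 25 from uptake to lactate export, both KO libraries lay below both E518K libraries, which lay below both wt libraries. The same order held for 14.6% of all genes tested. The reverse order held for 1 of the 38 genes, Mpc1, and for 14% of all genes. Among the genes whose 3 groups were all apart, E518K was lowest in 4. In Hk1, KO stood between E518K and wt, an order seen in 3.58% of all genes. In Pfkm, Pfkfb2 and Pdk4, wt stood between E518K and KO, an order seen in 4.0% of all genes. Pdk3 was lowest in wt and highest in E518K, and in the other 9 genes at least 2 groups overlapped. Among these was Mpc2, where E518K lay below KO and wt, which overlapped each other.

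**Figure D1:**
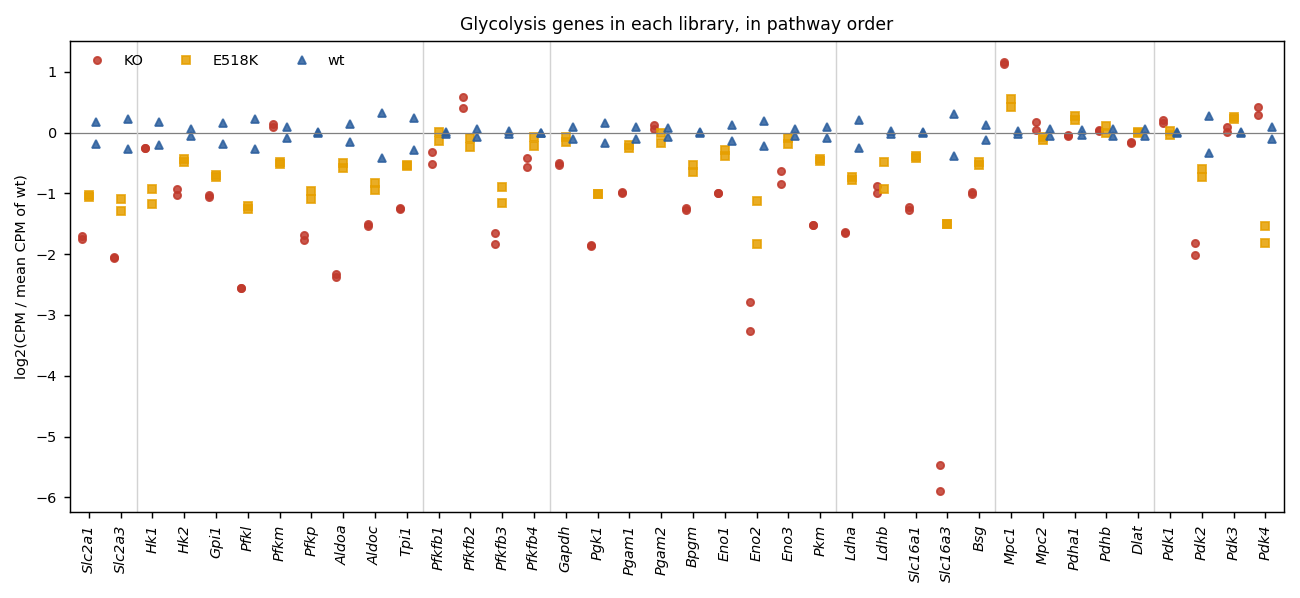
Each point is 1 library of KO (circles), E518K (squares) or wt (triangles), plotted as the log2 ratio of its CPM to the mean CPM of wt, for the 38 genes in pathway order with grey lines between steps. From Slc2a1 to Bsg most KO points lie lowest and E518K points between, down to Slc16a3 in KO, while Mpc1 shows the reverse order and Pdhb and Dlat stay near 0.

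Added over all 38 genes, CPM came to 13910 and 13950 in KO, 22860 and 22240 in E518K, and 34230 and 28330 in wt. The groups did not overlap, and the wt clones lay furthest apart. Lower glycolysis made up most of the sum, with 8957 ± 68.5 CPM (SD, n = 2) in KO, 14170 ± 430 CPM in E518K and 17680 ± 1886 CPM in wt. The relative difference varied by step. Summed CPM of the glucose carriers differed between KO and wt by a log2 ratio of -1.99, upper glycolysis by -1.58, lower glycolysis by -0.98, and lactate formation and export by -1.40. For pyruvate import and oxidation the log2 ratio was 0.01. In bulk RNA, fewer cells of a type and less RNA per cell cannot be told apart.

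**Figure D2:**
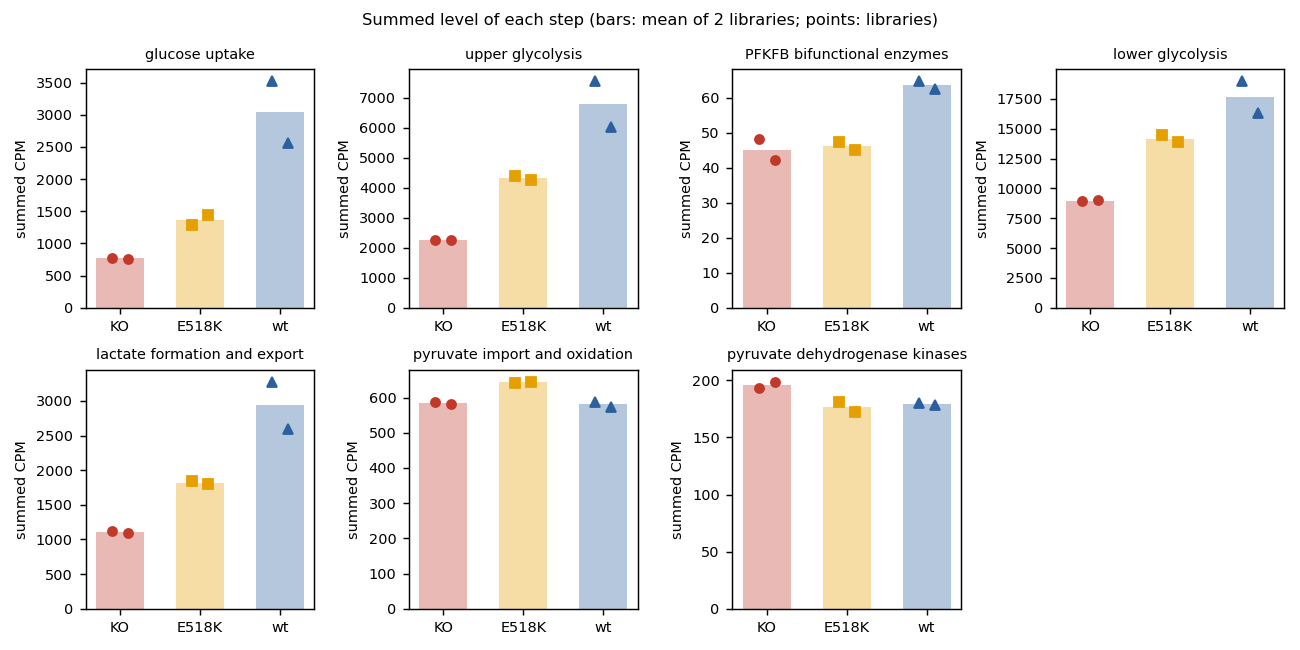
Bars give the mean summed CPM of the genes of each step and points the 2 libraries of each group (KO, E518K, wt), on linear axes from 0. The 4 steps from uptake to lactate export go up from KO to E518K to wt, whereas pyruvate import and oxidation lies between 572.7 and 645.3 CPM in all 6 libraries.

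To show the DNA in front of genes that fell together, promoters were searched on both strands for ACGTG and GCGTG, the core of the hypoxia response element bound by HIF, and for CACGTG, the E-box bound by MYC and other factors, which holds ACGTG within it. Windows ran from 250 bases before to 50 after each annotated start and come from RefSeq on GRCm38.p6. Touching or overlapping matches were counted as 1 core. Of the 38 genes, 36 had a window; Slc2a3 and Bsg had none. At least 1 core stood in a window of 30 of the 36 genes (83.3%), against 46.7% of 27025 genes with a window, and at least 2 cores in 20 (55.6%), against 19.1%. An E-box stood in 6 of the 36 (16.7%), against 8.09% of all. Genes can have several windows, and counted by window a core stood in 71.4% of 56 windows of these genes and in 43.8% of 32851 windows of all genes. A core stood in 12 of 16 genes (75.0%) that fell by at least 2-fold in KO and in 18 of the other 20 (90%), some of which also fell. Counted by window, the shares were 69.6% and 72.7%. At least 2 cores stood in 56.2% of the 16 and 55.0% of the other 20, and an E-box in 25.0% and 10.0%. The part of these motifs in the fall was not tested. These are descriptions of letters in a window, and base composition was not matched. The 27025 genes were also not limited to those that passed the filter on low counts, as all 38 genes did. The 6 windows printed hold the most cores among the genes that fell by at least 2-fold, with ties settled by the size of the fall, each read 5′ to 3′ on the strand of its gene, with the cores in capitals, also where the match is to the other strand (CACGT or CACGC).
Ldha, chr7:46845554-46845853, plus strand, 5 cores: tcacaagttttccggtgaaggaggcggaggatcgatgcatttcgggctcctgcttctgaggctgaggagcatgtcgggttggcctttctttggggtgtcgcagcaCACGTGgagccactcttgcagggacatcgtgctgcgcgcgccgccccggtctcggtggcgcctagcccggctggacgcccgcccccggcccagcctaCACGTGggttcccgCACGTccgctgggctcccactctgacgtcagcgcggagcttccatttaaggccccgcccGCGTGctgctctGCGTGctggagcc
Pfkp, chr13:6648722-6649021, minus strand, 4 cores: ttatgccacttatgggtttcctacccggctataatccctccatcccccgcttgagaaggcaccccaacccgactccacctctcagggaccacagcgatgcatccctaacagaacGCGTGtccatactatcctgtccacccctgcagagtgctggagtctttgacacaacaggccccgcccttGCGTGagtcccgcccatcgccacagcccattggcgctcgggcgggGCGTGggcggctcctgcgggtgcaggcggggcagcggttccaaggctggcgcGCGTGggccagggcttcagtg
Slc16a1, chr3:104638414-104638713, plus strand, 4 cores: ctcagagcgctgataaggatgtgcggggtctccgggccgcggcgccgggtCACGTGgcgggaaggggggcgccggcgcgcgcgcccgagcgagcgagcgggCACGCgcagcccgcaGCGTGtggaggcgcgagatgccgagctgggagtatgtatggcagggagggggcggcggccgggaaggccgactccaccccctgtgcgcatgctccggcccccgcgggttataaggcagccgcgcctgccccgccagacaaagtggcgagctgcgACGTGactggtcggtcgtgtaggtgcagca
Pfkfb3, chr2:11502041-11502340, minus strand, 3 cores: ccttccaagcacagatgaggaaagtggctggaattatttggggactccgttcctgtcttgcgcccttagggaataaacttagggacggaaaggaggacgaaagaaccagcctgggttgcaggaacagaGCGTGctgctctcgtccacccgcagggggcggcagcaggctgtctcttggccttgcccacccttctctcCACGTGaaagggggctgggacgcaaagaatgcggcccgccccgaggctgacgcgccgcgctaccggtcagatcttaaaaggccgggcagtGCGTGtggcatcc
Aldoc, chr11:78322823-78323122, plus strand, 3 cores: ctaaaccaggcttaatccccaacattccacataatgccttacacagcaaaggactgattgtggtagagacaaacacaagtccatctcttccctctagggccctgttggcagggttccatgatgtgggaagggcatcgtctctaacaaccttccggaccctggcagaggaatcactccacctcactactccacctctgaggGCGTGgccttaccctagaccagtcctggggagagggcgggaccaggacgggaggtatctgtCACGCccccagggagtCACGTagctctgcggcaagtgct
Slc16a3, chr11:120948817-120949116, plus strand, 2 cores: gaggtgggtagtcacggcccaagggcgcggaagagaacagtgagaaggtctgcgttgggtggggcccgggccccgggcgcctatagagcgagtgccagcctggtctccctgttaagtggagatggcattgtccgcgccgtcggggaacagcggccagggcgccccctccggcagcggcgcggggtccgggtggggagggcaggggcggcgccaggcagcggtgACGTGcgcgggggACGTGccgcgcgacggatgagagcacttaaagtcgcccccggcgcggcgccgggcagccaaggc

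Both glucose carriers fell in KO and in E518K. Slc2a3, which codes for the high-affinity carrier GLUT3 (chromosome 6, 122727809 to 122801640, GRCm38), was at 599.1 and 588.0 CPM in KO, 1010 and 1165 CPM in E518K, and 2884 and 2056 CPM in wt. The groups did not overlap, and wt 12 was the highest library. Its log2 fold change was -2.06 ± 0.15 in KO (adjusted p = 8.6e-05, edgeR) and -1.18 ± 0.15 in E518K (0.00354), both against wt. E518K was 1.83-fold above KO (adjusted p = 0.00351, edgeR). Slc2a1, which codes for the widely expressed carrier GLUT1, read 169.7 and 176.6 CPM in KO, 274.8 and 282.3 CPM in E518K, and 645.2 and 500.3 CPM in wt. It fell 3.31-fold in KO and 2.06-fold in E518K, again with E518K between the other groups without overlap. Per kilobase of exon, Slc2a3 was above Slc2a1 in each group, at 81.9 against 49.4 CPM in KO and 340.9 against 163.4 CPM in wt, and also per kilobase of span (8.04 against 5.92 CPM in KO, 33.5 against 19.6 CPM in wt).

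Hexokinases phosphorylate glucose and so trap it in the cell, and the 2 forms measured here did not move alike. Hk2, the inducible form, was at 171.1 and 183.4 CPM in KO, 248.8 and 256.6 CPM in E518K, and 362.5 and 333.1 CPM in wt, and fell 1.96-fold in KO and 1.38-fold in E518K. Hk1, the constitutive form of many tissues, read 112.2 and 112.8 CPM in KO, 70.5 and 59.3 CPM in E518K, and 152.3 and 116.3 CPM in wt. Its lowest libraries were those of E518K, and KO lay just under wt 16. Hk1 fell in E518K against wt (log2 fold change -1.05 ± 0.14, adjusted p = 0.00379, edgeR) and against KO (-0.79 ± 0.14, adjusted p = 0.0035). Its log2 fold change in KO against wt was -0.26 ± 0.13 (adjusted p = 0.141, 95% interval -0.57 to 0.06), and -0.44 without wt 16 (adjusted p = 0.00432). Hk1 made up 30.8% of both hexokinases per kilobase of exon in KO, 15.2% in E518K and 21.2% in wt, and less per kilobase of span (22%, 10.3% and 14.6%).

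The phosphofructokinases, which commit sugar to glycolysis, changed in their make-up. Pfkl, the liver-type subunit (chromosome 10, 77986947 to 78010083), was at 85.1 and 84.8 CPM in KO, 209.5 and 215.9 CPM in E518K, and 584.5 and 411.5 CPM in wt. It fell 5.86-fold in KO (log2 fold change -2.55 ± 0.15, adjusted p = 4.04e-05, edgeR) and 2.34-fold in E518K (-1.23 ± 0.15, adjusted p = 0.00301). Pfkp, the platelet-type subunit, stood at 99.2 and 104.6 CPM in KO, 158.2 and 172.9 CPM in E518K, and 336.3 and 338.9 CPM in wt. The groups of both genes kept the order KO, E518K, wt without overlap. Pfkm, the muscle-type subunit, did not follow them: it read 96.7 and 92.9 CPM in KO, 62.1 and 61.1 CPM in E518K, and 92.7 and 81.7 CPM in wt. It was lowest in E518K, by a log2 fold change of -0.50 ± 0.08 against wt (adjusted p = 0.00642) and -0.62 ± 0.08 against KO (adjusted p = 0.00107), while KO against wt gave 0.12 ± 0.08 (adjusted p = 0.22, 95% interval -0.06 to 0.30). Without wt 12 that last value was 0.21, with an adjusted p of 0.0135. Pfkm shares 1156 bases with Senp1 on the other strand, and Senp1 stood at 77.5 to 89.1 CPM over the 6 libraries, with E518K highest.

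Per kilobase of exon, Pfkm made up 59.0% and 57.6% of the 3 phosphofructokinases in the KO libraries, 30.1% and 28.8% in E518K, and 19.8% and 22% in wt. Pfkl made up 26.0% and 26.3% in KO, 50.8% and 50.9% in E518K, and 62.4% and 55.3% in wt. Which subunit leads in KO depends on the length used, since the counts follow the genomic span. Per kilobase of span, an alternative chosen after seeing the data, Pfkl led in every library, with 48.8% in KO, 70% in E518K and 74.8% in wt, and Pfkm made up 31.6%, 11.8% and 7.72%. On both lengths the share of Pfkm was highest in KO and lowest in wt, without overlap. With 2 libraries a group these shares carry no test.

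**Figure D3:**
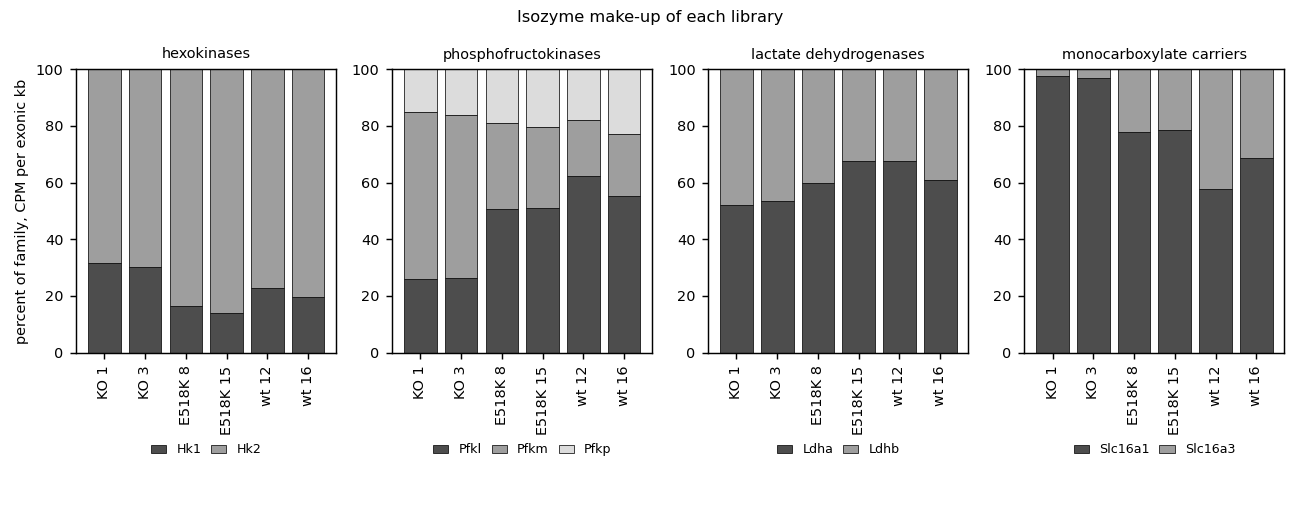
Stacked bars give, for each library, the percent that each isozyme adds to the summed CPM per kilobase of exon of its family, for hexokinases, phosphofructokinases, lactate dehydrogenases and monocarboxylate carriers. Pfkm takes 59.0% and 57.6% of the bar in the KO libraries against 19.8% and 22% in wt, and Slc16a3 2.3% and 3.13% against 42.4% and 31.3%.

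The rest of upper glycolysis fell in KO and in E518K. Aldoa, the main aldolase, was at 589.8 and 574.3 CPM in KO, 2097 and 1982 CPM in E518K, and 3290 and 2657 CPM in wt. It fell 5.11-fold in KO (log2 fold change -2.35 ± 0.10, adjusted p = 1.78e-05, edgeR) and 1.46-fold in E518K (-0.54 ± 0.10, adjusted p = 0.01), so E518K lay nearer to wt than to KO. The span of Aldoa overlaps that of Fam57b on the other strand by 3084 bases, and Fam57b had log2 fold changes of -2.36 in KO and -0.60 in E518K against wt.

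Aldoc, the brain-type aldolase, read 19.9 and 20.4 CPM in KO, 29.8 and 32.4 CPM in E518K, and 72.3 and 42.9 CPM in wt, and fell 2.85-fold in KO and 1.85-fold in E518K. Its wt clones differed more than the KO and E518K groups did, and E518K against KO did not pass the test (log2 fold change 0.62 ± 0.22, adjusted p = 0.0542, edgeR). It passed in 6 of 14 alternatives, among them DESeq2 (adjusted p = 0.0107), only the 2 groups compared (0.000128), and without wt 12 (8.11e-05) or wt 16 (5.86e-05). Gpi1, which turns glucose 6-phosphate into fructose 6-phosphate, was at 777.4 and 762.7 CPM in KO, 983.0 and 957.4 CPM in E518K, and 1779 and 1403 CPM in wt. Tpi1, which interconverts the triose phosphates, stood at 324.1 and 322.8 CPM in KO, 525.6 and 530.5 CPM in E518K, and 903.2 and 631.0 CPM in wt. Both fell by more than 2-fold in KO, 2.07-fold for Gpi1 and 2.37-fold for Tpi1, and neither gene's groups overlapped. In E518K, Gpi1 fell 1.64-fold and Tpi1 1.45-fold, and that call of Tpi1 held in 6 of 13 alternatives.

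The PFKFB enzymes make and break fructose 2,6-bisphosphate, the strongest activator of phosphofructokinase, and they split. Pfkfb3, the form with the highest kinase activity, was at 9.26 and 8.10 CPM in KO, 15.6 and 13 CPM in E518K, and 29.6 and 28.4 CPM in wt. It fell 3.34-fold in KO (log2 fold change -1.74 ± 0.13, adjusted p = 8.3e-05, edgeR) and 2.03-fold in E518K (-1.02 ± 0.13, adjusted p = 0.00326). Pfkfb2, the heart-type form, moved the other way in KO: 24.2 and 21.3 CPM, against 16.9 and 15.4 CPM in wt and 13.8 and 15.1 CPM in E518K. The rise was 1.41-fold (log2 fold change 0.49 ± 0.11, adjusted p = 0.00833), and E518K against wt did not pass the test (-0.16 ± 0.11, adjusted p = 0.336). Without KO 1 the rise of Pfkfb2 was 0.40 on the log2 scale (adjusted p = 0.101), and its span overlaps that of Yod1 by 7032 bases.

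Pfkfb1, the liver-type form, at 10.1 to 14.6 CPM, and Pfkfb4, at 2.75 to 4.06 CPM, fell in KO by 1.33-fold and 1.40-fold. Neither passed the test in E518K against wt, with log2 fold changes of -0.07 ± 0.12 and -0.15 ± 0.17. Both calls in KO were lost without KO 1 (adjusted p = 0.0601 and 0.155) and without KO 3 (0.197 and 0.273), and that of Pfkfb4 also without E518K 8 (0.0696) or E518K 15 (0.0683), which are not in the comparison but share its estimate of spread.

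In lower glycolysis, where ATP and NADH are gained, 8 of 9 genes fell in KO and 5 in E518K. Over all genes tested, 29.7% fell in KO and 12.5% in E518K. The E518K calls of Bpgm and Eno1 held in 8 of 14 and 9 of 15 alternatives. Pgk1, which makes ATP from 1,3-bisphosphoglycerate, was at 354.4 and 348.2 CPM in KO, 636.5 and 633.5 CPM in E518K, and 1417 and 1133 CPM in wt. It fell 3.63-fold in KO (log2 fold change -1.86 ± 0.10, adjusted p = 3.19e-05, edgeR) and 2.01-fold in E518K (-1.005 ± 0.10, adjusted p = 0.00176). Pkm, the pyruvate kinase of most tissues (chromosome 9, 59656368 to 59679375), read 1768 and 1760 CPM in KO, 3752 and 3679 CPM in E518K, and 5379 and 4770 CPM in wt. Pkm fell 2.88-fold in KO and 1.37-fold in E518K, with groups apart, and the counts do not tell its splice forms from each other.

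Gapdh, which makes the NADH of glycolysis and often serves as a reference gene, changed less but also fell in KO: 3992 and 4098 CPM, against 6199 and 5376 CPM in wt. Its log2 fold change was -0.52 ± 0.08 (adjusted p = 0.00116, edgeR). E518K, at 5478 and 5193 CPM, overlapped wt and did not pass the test (-0.12 ± 0.08, adjusted p = 0.291, and -0.22 with an adjusted p of 0.0146 without wt 16). Pgam1, the main phosphoglycerate mutase, was at 674.5 and 669.1 CPM in KO, 1149 and 1119 CPM in E518K, and 1421 and 1237 CPM in wt. It fell 1.98-fold in KO, and the groups did not overlap. E518K against wt gave -0.23 ± 0.07 (adjusted p = 0.062, edgeR), and passed with upper-quartile factors (0.0265), with limma on TPM (0.0184) and without wt 16 (0.00124).

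Eno1, the main enolase, was at 2106 and 2115 CPM in KO, 3440 and 3220 CPM in E518K, and 4573 and 3809 CPM in wt, and fell 1.99-fold in KO and 1.26-fold in E518K. Its counts are uncertain because the near-identical copy Eno1b can take reads from it. The log2 ratio of Eno1 to Eno1b was 1.31 to 1.34 in every library, and the sum of both gave a log2 fold change of -0.98 in KO, an alternative chosen after seeing the data. The other enolases were far lower. Eno2, the neuron-type enolase, stood at 0.67 and 0.48 CPM in KO, 1.29 and 2.11 CPM in E518K, and 5.25 and 3.98 CPM in wt, and its log2 fold change in KO was -2.998 ± 0.34 (adjusted p = 0.00039). Eno3, the muscle-type enolase, lay between 5.65 and 10.6 CPM and fell 1.67-fold in KO.

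Bpgm, whose product 2,3-bisphosphoglycerate is best known from red cells, was at 3.96 and 4.02 CPM in KO, 6.57 and 6.06 CPM in E518K, and 9.46 and 9.60 CPM in wt, and fell 2.39-fold in KO. Pgam2, the muscle-type mutase, stood at 1.93 to 2.37 CPM in all 6 libraries and passed no test. Its log2 fold change in KO against wt was 0.09, with a 95% interval of -0.39 to 0.57.

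The last steps to lactate held the widest difference of the 38 genes. Slc16a3 codes for MCT4, the carrier through which glycolytic cells export lactate (chromosome 11, 120948480 to 120960868). It was at 2.86 and 3.81 CPM in KO, 59.9 and 59.5 CPM in E518K, and 209.5 and 129.5 CPM in wt. KO held the least of this transcript, and both E518K libraries lay below both wt clones. Its log2 fold change was -5.67 ± 0.27 in KO against wt (adjusted p = 2.12e-05, edgeR), or 50.8-fold, and -1.50 ± 0.22 in E518K against wt (0.00501). E518K was 17.9-fold above KO (adjusted p = 0.000117, edgeR). Both cores in the promoter window printed above read ACGTG on the strand of the gene.

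Slc16a1 codes for MCT1, which carries lactate in either direction, and changed far less: 100.9 and 98.2 CPM in KO, 176.6 and 181.3 CPM in E518K, and 237.4 and 236.5 CPM in wt. Its libraries agreed closely within each group, and it fell 2.38-fold in KO and 1.32-fold in E518K. Slc16a3 thus made up 2.3% and 3.13% of the 2 carriers per kilobase of exon in KO, 22% and 21.5% in E518K, and 42.4% and 31.3% in wt. Per kilobase of span its share was 5.08% in KO, 34.8% in E518K and 52.6% in wt. Bsg, the chaperone that brings both carriers to the membrane, fell 1.99-fold in KO and 1.43-fold in E518K, with 331.1 and 322.9 CPM in KO, 464.2 and 448.1 CPM in E518K, and 706.6 and 596.5 CPM in wt.

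Ldha, the lactate dehydrogenase subunit that favours lactate formation, was at 482.6 and 473.7 CPM in KO, 872.4 and 900.1 CPM in E518K, and 1730 and 1255 CPM in wt. It fell 3.12-fold in KO (log2 fold change -1.64 ± 0.14, adjusted p = 0.00012, edgeR) and 1.68-fold in E518K (-0.75 ± 0.13, adjusted p = 0.00963). Ldhb, the heart-type subunit, read 210.2 and 195.5 CPM in KO, 275.9 and 204.5 CPM in E518K, and 394.8 and 380.2 CPM in wt. The E518K clones fell on different sides of KO 1, so KO and E518K overlapped, and E518K against KO did not pass the test (0.24 ± 0.13, adjusted p = 0.171). Without E518K 15 it gave 0.46, with an adjusted p of 0.0149. Per kilobase of exon Ldha made up 52.8% of both subunits in KO, 63.8% in E518K and 64.3% in wt, and per kilobase of span 74.7%, 82.2% and 82.5%.

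**Figure D4:**
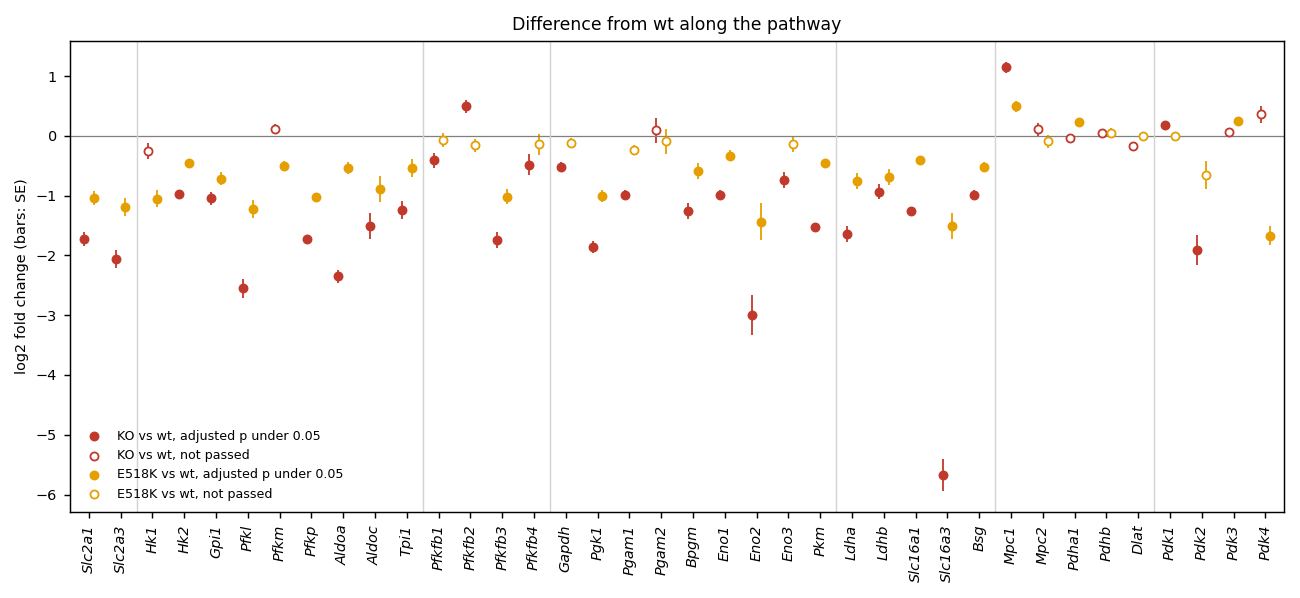
Points give the log2 fold change of each of the 38 genes in pathway order for KO against wt and E518K against wt, with bars for 1 standard error; filled points passed an adjusted p of 0.05 and open ones did not. Both comparisons use the wt libraries. Values run from -5.67 for Slc16a3 to 1.15 for Mpc1 in KO, and from -1.67 for Pdk4 to 0.49 for Mpc1 in E518K.

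Past the branch to lactate, genes moved in both directions. Of the 9 genes of pyruvate import, oxidation and its kinases, 1 fell and 2 rose in KO against wt, where 29.7% and 27.4% of all genes did, with a median log2 fold change of 0.06. In E518K, 1 fell and 3 rose, where 12.5% and 11.3% of all genes did. Mpc1, a subunit of the carrier that brings pyruvate into mitochondria (chromosome 17, 8282904 to 8297661), was at 38.4 and 37.7 CPM in KO, 23.1 and 25.2 CPM in E518K, and 16.8 and 17.5 CPM in wt. It was highest in KO and lowest in wt without overlap, with log2 fold changes of 1.15 ± 0.09 in KO against wt (adjusted p = 8.82e-05, edgeR) and 0.49 ± 0.09 in E518K against wt (adjusted p = 0.0095). Its partner Mpc2 stood at 11.7 to 14.2 CPM and passed no test, with a log2 fold change of 0.11 in KO against wt (95% interval -0.15 to 0.37). Both proteins are needed for the carrier.

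For the pyruvate dehydrogenase subunits, the intervals of KO against wt rest on 2 libraries a group. Both KO libraries carry the same clone number, so the intervals do not cover differences between KO clones. Pdha1, of the catalytic E1 alpha subunit, had a 95% interval of -0.18 to 0.10 on the log2 scale, Pdhb, of E1 beta, -0.12 to 0.20, and Dlat, of the E2 core, -0.32 to -0.02 with an adjusted p of 0.0558. Dlat passed the test without wt 16, at -0.22 (adjusted p = 0.00513). Pdha1 was higher in E518K, at 331.1 and 346.1 CPM against 296.6 and 279.3 CPM in wt, by a log2 fold change of 0.23 ± 0.06 (adjusted p = 0.0317, edgeR). This call of Pdha1 held in 6 of 13 alternatives and was lost without KO 1, KO 3, E518K 8 or E518K 15, with an adjusted p of up to 0.158. The reads of Pdha1 can be shared with Map3k15, which overlaps it by 1143 bases and rose by 0.29 in the same comparison.

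The pyruvate dehydrogenase kinases switch the complex off by phosphorylation, and each had its own pattern. Pdk1, the kinase known as a HIF target, stood at 120.7 to 144.1 CPM and was 1.14-fold higher in KO than in wt (log2 fold change 0.19 ± 0.06, adjusted p = 0.0358, edgeR). That call was lost when KO 1, KO 3 or E518K 15 was left out (adjusted p = 0.145, 0.258 and 0.0533). Pdk2 was at 1.82 and 1.58 CPM in KO, 4.23 and 3.87 CPM in E518K, and 7.75 and 5.06 CPM in wt, and fell 3.76-fold in KO. Against wt, Pdk2 in E518K gave -0.66 ± 0.23 (adjusted p = 0.082), and -0.94 without wt 16 (adjusted p = 0.0024). Pdk3 was 1.18-fold higher in E518K than in wt (46.4 and 45.2 against 39.0 and 38.3 CPM, adjusted p = 0.0489, edgeR). This call of Pdk3 held in 5 of 14 alternatives and was lost without any 1 of the KO or E518K libraries, with an adjusted p of up to 0.192.

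Pdk4, the kinase induced by fasting and fatty acids, was low in E518K alone. It read 13.1 and 11.9 CPM in KO, 3.36 and 2.77 CPM in E518K, and 10.4 and 9.10 CPM in wt. Its log2 fold change was -1.67 ± 0.16 in E518K against wt (adjusted p = 0.00158, edgeR) and -2.03 ± 0.16 in E518K against KO (adjusted p = 0.000259). KO against wt gave 0.36 ± 0.15 (adjusted p = 0.0775), and 0.46 without wt 12 (adjusted p = 0.0274). Of the 4 kinases, Pdk1 made up 47.9% in KO, 44.3% in E518K and 44.6% in wt per kilobase of exon, and Pdk3 41.3%, 49.7% and 42.1%. Per kilobase of genomic span Pdk1 made up 73.4%, 77.4% and 69.9%, and Pdk3, whose span is long, 9.46%, 13% and 9.85%.

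The place of E518K between KO and wt differed from gene to gene. With the mean log2 CPM of KO set to 0% and that of wt to 100%, the median place of E518K over the 22 genes from uptake to lactate export that fell in KO was 52.7%. Over the 4874 genes that fell in KO and had counts in every library it was 66.9%. It was 40.0% for Slc2a1, 42.7% for Slc2a3, 32.1% for Gpi1 and 40.5% for Pfkp. It was 77.1% for Aldoa, 77.7% for Gapdh, 77.0% for Pgam1, 70.6% for Pkm and 74.1% for Slc16a3. The extremes were Ldhb at 24.4%, where the clones gave 47.6% and 1.32%, and Eno3 at 81.3%. These places describe the same libraries as the fold changes and carry no test.

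Calls of E518K against wt were lost more often than those of KO against wt when 1 library was left out. Of the 26 calls of E518K against wt, 18 were lost without E518K 15 and 10 without E518K 8, while 1 was lost without wt 12 and 0 without wt 16. Leaving out KO 1 lost 5, and so did leaving out KO 3. The fold changes moved less than the calls: without E518K 15 the median of the 38 genes was -0.48 in place of -0.51, Pfkl gave -1.24 in place of -1.23, and Slc16a3 -1.49 in place of -1.50. The 7 calls that passed under every alternative tried were the decreases of Slc2a1, Slc2a3, Pfkp, Pfkfb3, Pgk1, Slc16a1 and Pdk4. Of the 29 calls of KO against wt, 25 passed under every alternative, and those lost under at least 1 were Pfkfb1, Pfkfb2, Pfkfb4 and Pdk1. Of the 29 calls of E518K against KO, 19 passed under every alternative.

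The 2 wt clones differed in the pathway itself. In 31 of the 38 genes, and in 23 of the 25 from uptake to lactate export, wt 12 was above wt 16, by a median log2 ratio of 0.26 in the latter. Over all genes tested wt 12 was above wt 16 in 49.7%. In E518K, clone 8 was above clone 15 in 14 of the 25 genes, with a median log2 ratio of 0.01, against 50.4% of all genes. The wt clone with the higher values, wt 12, had 195.5 CPM of Dgcr8 and wt 16 had 992.4 CPM. The part of Dgcr8 in the difference between clones was not tested.

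Pathways that share metabolites with glycolysis were counted in the same way, beside 29.7% of all genes lower and 27.4% higher in KO, and 12.5% and 11.3% in E518K. At an unadjusted p under 0.05, 5334 of all 16498 genes were lower and 4951 higher in KO, and 3261 and 3086 in E518K. DESeq2 called 4805 lower and 4617 higher in KO, and 2313 and 2444 in E518K. In the pentose phosphate pathway, which draws on glucose 6-phosphate for NADPH and ribose, 4 of 7 genes fell and 2 rose in KO against wt. Rpia, which makes ribose 5-phosphate, rose 3.24-fold, with 37.8 and 36.4 CPM in KO, 11.6 and 11.7 CPM in E518K, and 12.3 and 10.6 CPM in wt, so E518K overlapped wt (log2 fold change 0.025, 95% interval -0.22 to 0.27). Pgd, which makes NADPH, rose by a log2 fold change of 0.74 ± 0.08 in KO and 0.52 ± 0.08 in E518K, while Taldo1 and Tkt, of the branch that leads back to glycolysis, fell in KO (-0.81 ± 0.09 and -0.58 ± 0.08). G6pdx, the enzyme at the entry to the pathway, fell in KO (-0.32 ± 0.07) and rose in E518K (0.33 ± 0.07). In E518K against wt, 1 of the 7 fell and 3 rose.

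Of 16 citric acid cycle genes, 6 fell and 7 rose in KO, none by 2-fold, with Cs (0.47 ± 0.06) and Fh1 (0.54 ± 0.07) higher and Sdhd (-0.53 ± 0.07) lower. In E518K against wt edgeR called 0 of the 16. At an unadjusted p under 0.05, 1 was lower and 1 higher, where 3261 and 3086 of all 16498 genes were. DESeq2 called 1 lower and 0 higher, where it called 2313 and 2444 of all genes. Of 7 further subunits and phosphatases of pyruvate dehydrogenase, 0 fell and 2 rose in KO, Dld (0.98 ± 0.12) and Pdhx (0.25 ± 0.07), with 0 lower and 2 higher at an unadjusted p under 0.05 and by DESeq2. For E518K against wt edgeR called 0 of the 7, with 0 lower and 2 higher at an unadjusted p under 0.05 and 0 lower and 1 higher by DESeq2. Of 6 genes of the NADH shuttles, 3 fell and 2 rose in KO and in E518K. Got1, a cytosolic aminotransferase of the malate-aspartate shuttle, fell in KO (-0.82 ± 0.06), as did Gpd1l (-0.85 ± 0.09) and the mitochondrial Got2 (-0.44 ± 0.07), and Gpd2, of the glycerol phosphate shuttle, rose by 0.41 ± 0.07 in KO and 0.56 ± 0.07 in E518K.

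Gluconeogenesis, the reverse route, had 5 of 6 tested genes lower and 0 higher in KO and 3 lower and 0 higher in E518K, with the same counts at an unadjusted p under 0.05 and by DESeq2, and 1 of its 7 genes, Pck1, was not tested. Pcx, which carboxylates pyruvate, stood at 36.6 and 34.9 CPM in KO, 60.1 and 63.2 CPM in E518K, and 63.5 and 60.1 CPM in wt, a log2 fold change of -0.79 ± 0.07 in KO, with E518K against wt at -0.003 ± 0.07 (adjusted p = 0.978, edgeR). G6pc3 (-0.97 ± 0.13), Pck2 (-0.85 ± 0.12) and Fbp2 (-1.25 ± 0.23) also fell in KO. Glycogen metabolism had 4 of 8 genes lower and 4 higher in KO. Gys1, the glycogen synthase, fell (-1.03 ± 0.10), as did Pygm (-1.96 ± 0.29), and Ugp2, which makes UDP-glucose, rose (0.85 ± 0.10). Ppp1r3c, which targets protein phosphatase to glycogen, was at 0.03 and 0 CPM in KO, 0.42 and 0.16 CPM in E518K, and 2.51 and 1.84 CPM in wt. In E518K against wt, 2 of the 8 fell and 2 rose. Pygl, a glycogen phosphorylase, fell in E518K (-3.10 ± 0.41, adjusted p = 0.00385, edgeR) and in KO (-2.58 ± 0.39). It was at 0.44 and 0.23 CPM in KO, 0.19 and 0.27 CPM in E518K, and 1.85 and 2.20 CPM in wt, and E518K against KO did not pass the test.

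Of 21 further isozymes and carriers, 15 passed the filter on low counts, 8 fell and 1 rose in KO, and 5 fell and 0 rose in E518K, where 1 was higher at an unadjusted p under 0.05 and 1 by DESeq2. Pklr, the pyruvate kinase of liver and red cells, was at 0.14 and 0.08 CPM in KO, 0.51 and 0.52 CPM in E518K, and 1.23 and 2.03 CPM in wt. Adpgk, an ADP-dependent glucokinase, fell in KO (-0.64 ± 0.07) and E518K (-0.37 ± 0.07). Slc2a8, an intracellular glucose carrier, fell in KO (-0.68 ± 0.11). Pgm2 fell in KO (-0.89 ± 0.13) and E518K (-1.04 ± 0.13), at 127.3 and 95.2 CPM in wt and 53.2 to 60.0 CPM in the other libraries.

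Regulators of glycolytic genes moved in both directions. Of 20, 7 fell and 9 rose in KO, where 29.7% and 27.4% of all genes tested did. In E518K against wt 4 fell and 5 rose, where 12.5% and 11.3% of all genes did. Myc, a direct activator of glycolytic genes, was at 4.47 and 4.90 CPM in KO, 23.9 and 28.4 CPM in E518K, and 16.9 and 14.8 CPM in wt. It fell in KO (-1.76 ± 0.14) and rose in E518K (0.72 ± 0.13, adjusted p = 0.0101, edgeR). Its relative Mycn was highest in KO, at 193.0 and 185.1 CPM, with 164.9 and 152.8 CPM in E518K and 84.2 and 86.7 CPM in wt. Hif1a, the oxygen-regulated subunit of HIF-1, fell in KO (-0.30 ± 0.08), and its partner Arnt fell in KO and in E518K (-0.33 ± 0.06 in each). Epas1, which codes for HIF-2 alpha, rose in KO (0.79 ± 0.14).

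Egln1, Egln2 and Egln3 code for prolyl hydroxylases, oxygen sensors that mark HIF for decay, and Egln1 and Egln3 are themselves HIF targets. Egln2 overlapped between groups and passed no test, with log2 fold changes against wt of -0.12 ± 0.10 in KO and 0.09 ± 0.10 in E518K. Egln1 and Egln3 lay in the order KO, E518K, wt without overlap, as 14.6% of all genes tested did. Egln1 was at 22.6 and 23.1 CPM in KO, 29.9 and 29.1 CPM in E518K, and 79.9 and 56.9 CPM in wt. Egln3 was at 16.6 and 15.8 CPM in KO, 25.1 and 23.3 CPM in E518K, and 55.0 and 48.6 CPM in wt. Both fell in KO (-1.58 ± 0.15 and -1.68 ± 0.10) and in E518K (-1.21 ± 0.15 and -1.10 ± 0.10). Vhl, of the ubiquitin ligase that reads the mark, rose by 0.22 ± 0.08 in KO.

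Mbd2, a methyl-CpG reader, rose in KO (44.5 and 42.6 CPM, against 20.99 and 21.01 CPM in wt and 21.4 and 23.1 CPM in E518K). Txnip, which lowers glucose uptake, was at 249.1 and 242.1 CPM in KO, 87.1 and 87.3 CPM in E518K, and 141.0 and 201.8 CPM in wt, so it rose in KO (0.52 ± 0.15) and fell in E518K (-0.97 ± 0.15). The AMPK catalytic subunits Prkaa1 and Prkaa2, of the kinase that senses low ATP, rose in KO (0.96 ± 0.07 and 1.12 ± 0.08), and Prkaa2 also in E518K (0.27 ± 0.08). Lin28a, which keeps let-7 miRNAs from maturing, was at 1.19 and 1.22 CPM in KO and between 82.3 and 116.6 CPM in the other libraries, while Lin28b rose in KO (1.93 ± 0.33). Esrrb fell in KO (-0.43 ± 0.05), Trp53 rose in KO and E518K (0.22 ± 0.06 and 0.21 ± 0.06), and Tigar, a p53 target that lowers fructose 2,6-bisphosphate, rose in E518K (0.24 ± 0.07). The part of these regulators in the values of the glycolytic genes was not tested.

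**Figure D5:**
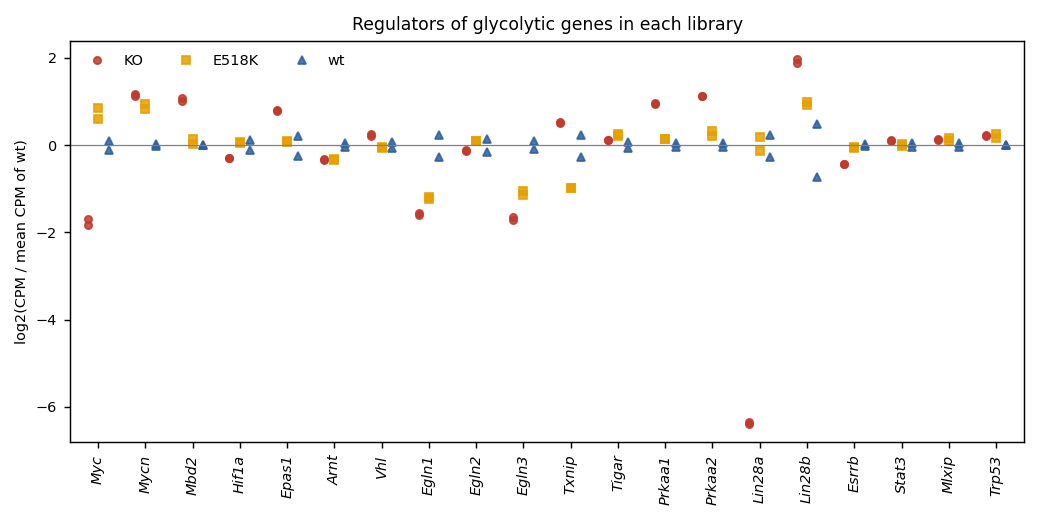
Each point is 1 library of KO (circles), E518K (squares) or wt (triangles), plotted as the log2 ratio of its CPM to the mean CPM of wt, for 20 regulators of glycolytic genes. Egln1 and Egln3 lie low in KO and E518K, Myc is low in KO and above wt in E518K, and Lin28a is low in KO alone.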

How the data were processed

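Whole-number counts per gene symbol were deposited by the authors with no normalization, beside TPM values, also deposited by the authors. Per the submitters' processing notes, STAR, bedtools and build GRCm38.p6 were used; no settings are given there. The gene length implied by counts and TPM lay within 5% of the genomic span for 98.55% of 11885 genes and of the exonic length for 4.38%, so counts were taken to cover introns. Overlapping genes can share reads, as 8 of the 38 genes can.

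Groups followed the sample titles. Depth was 73642784 to 75121971 counts per library. Counts of all 6 libraries entered 1 fit in edgeR 4.0.16 (R 4.3.3; TMM factors, default filter with a minimum count of 10, robust quasi-likelihood F tests, group as the only term, 3 residual degrees of freedom, Benjamini-Hochberg adjustment over 16498 genes), checked on simulated data. The common biological coefficient of variation was 11.9%, and by group 2.6% in KO, 9.19% in E518K and 20.6% in wt. Replicates differed beyond sampling noise, where chi-square divided by its degrees of freedom came to 3.55 (KO), 21.6 (E518K) and 51.4 (wt). Alternatives were DESeq2 1.42.0, its size factors, upper-quartile factors, no filter, only the 2 groups compared, KO libraries summed, genes without overlap, each library left out, Eno1 and Eno1b summed and isozyme shares per kilobase of genomic span (both added after seeing the data), and limma 3.58.1 on log2(TPM + 1). Coordinates and exonic lengths come from GENCODE on GRCm38, and promoters from RefSeq.

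The 38 genes and all lists were chosen with earlier results of these data known. All 38 are named. Per-library values are given for those that changed at least 2-fold or against their step. For other pathways, up to 4 called genes with the smallest p in KO and up to 2 in E518K are named, and every called regulator. An item withheld for evaluation is not reported here.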

Additional observations from a re-analysis of the deposited data

How the results depend on the processing

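Across the alternatives the count of genes that fell in KO against wt (26) stayed between 22 and 28 and the median log2 fold changes of the 38 genes against wt kept their sign. No paired analysis was possible because the groups share no replicate numbers. The count that rose in KO (3) was 1 with KO libraries summed, 1 among genes without overlap, and 1 to 5 with 1 library left out. The count that fell in E518K against wt (23) was 8 without E518K 15, 15 without E518K 8, and 8 to 26 over all libraries left out. The count that rose there (3) was 1 with only the 2 groups compared, with KO libraries summed and with limma on TPM, and 0 to 3 with 1 library left out. The count lower in E518K than in KO (6) was 3 among genes without overlap. The median in E518K against KO (0.55) was 0.33 with limma on TPM, 0.63 among genes without overlap, and 0.50 to 0.60 with 1 library left out. On library totals the summed CPM was 14490 and 14540 in KO and 22260 and 21690 in E518K.

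Direction changed only near 0, in genes without a call. In KO against wt, Pdha1 gave 0.0043 with limma and -0.091 to 0.00077 with 1 library left out, and Pdhb -0.017 with upper-quartile factors and -0.015 to 0.090 with 1 library left out. In E518K against wt, Pfkfb1 gave -0.14 to 0.019 with 1 library left out and Pdhb -0.0078 with limma. Dlat there gave -0.046 with upper-quartile factors, -0.00033 with no filter, -0.060 with limma and -0.051 to 0.057 with 1 library left out, and Pdk1 0.0075 with DESeq2 or its size factors, 0.0050 with only the 2 groups compared and -0.042 to 0.044 with 1 library left out. In E518K against KO, Pdhb gave -0.094 with limma and -0.033 to 0.087 with 1 library left out. The cause was not tested.

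Over all genes, E518K against wt had 3917 calls, and 644 without E518K 15, 1650 without E518K 8, 1999 with only the 2 groups compared and 1909 with KO libraries summed. Of its calls 47.5% were higher, against 37.5% with upper-quartile factors, 26.8% with limma on TPM and 60.1% and 60.2% without E518K 8 and E518K 15. In E518K against KO 52.7% were higher, and 40.7% with limma on TPM. Promoter cores stood in 21 of 36 genes within the 150 bases nearest the end of the window (58.3%, against 32.2% of all 27025 genes with a window, expressed here or not). Both KO libraries carry 1 clone number, so KO and its clone cannot be told apart, and wt and E518K have 2 clones each.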
